A study of Mus musculus with 88 samples.

Results

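Myelin is the spiral of membrane that oligodendrocytes wrap around axons, and 9 protein-coding genes that mature oligodendrocytes use to build it were followed through a cortical contusion: Mbp, Mog, Mag, Mobp, Cnp, Cldn11, Opalin, Ermn and Mal. They were taken by symbol, each symbol matched 1 Ensembl identifier, and all 9 were found among the 54532 genes of the count table. All 9 passed the filter on low counts in every fit, so no member was lost. The data were read counts per gene from polyadenylated RNA of cortical punches of C57BL/6 mice (purchased as C57BL/6J), injured at 8 to 9 weeks of age. In GRCm38 the genes lie at chr3:31149920-31164324 (Cldn11), chr7:30899176-30914873 (Mag), chr17:37010743-37023398 (Mog), chr9:120149707-120181484 (Mobp), chr11:100574904-100591729 (Cnp), chr19:41061710-41077113 (Opalin), chr2:58045113-58052864 (Ermn) and chr2:127633226-127656695 (Mal), and Mbp is on chromosome 18.

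The ipsilateral punches compared came from 13 naive mice (7 females, 6 males), 15 mice at 24 h after injury (7 females, 8 males) and 15 mice at 72 h (9 females, 6 males). The contralateral punches came from 16 mice at 72 h (9 females, 7 males) and from the same mice as on the other side at 24 h and among naive animals. Injured mice were anaesthetised with isoflurane and had the skull opened over the right somatosensory cortex, in a craniotomy of 3 mm. A controlled cortical impact, a piston stroke onto the exposed brain, followed with a 2 mm tip, at 6.0 m/s, to a depth of 1 mm and with a dwell of 100 ms. The wound was sutured and treated with antibiotic ointment, and buprenorphine at 0.05 mg/kg and saline were injected. None of these steps is given for naive mice, and no group had surgery without impact, so effects of impact, craniotomy, anaesthesia and drugs cannot be told apart. All mice were perfused, and 4 mm punches were centred on the injury and on the opposite cortex. In naive mice the right punch is labelled ipsilateral. A punch holds every cell of the cortex and whatever lies at its rim. Counts scaled to library size are shares, so gain or loss of RNA from other cells also moves them. Such a shift, a change in oligodendrocyte number and a change in an RNA per oligodendrocyte thus cannot be told apart. Naive mice stand in batches A and B of the labels, 24 h mice in A and B, and 72 h mice in B and C, and each animal gives 1 library per side.

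Total counts per library were 10.6 to 26.4 M reads, and 3 animals need naming before the results. Both libraries of animal LF3, a female at 72 h, stood apart. They had the lowest normalization factors of all libraries (0.772 ipsilateral, 0.611 contralateral), and mitochondrial genes took 10.5% and 7.8% of their counts. The ipsilateral library of animal PF1, labelled female at 72 h, carries Y-linked transcripts. Scaled to the library total alone, it held 0.11 CPM of Xist and 60.2 CPM of Ddx3y, while the contralateral library of PF1 held 485.4 CPM of Xist and 0.0 CPM of Ddx3y. For the animal PM1 the sex given in the labels of its ipsilateral punch is not the same throughout, so that library enters no comparison. It held 489.4 CPM of Xist and 0.0 CPM of Ddx3y, against 0.18 and 56.3 CPM in the contralateral library of PM1. For both labels the punches thus differ in the transcripts of the sex chromosomes, and whether each pair came from 1 animal cannot be told from these files. PF1 was kept as labelled, PM1 was left out of the comparison between punches, and the tests averaged over the sexes and those between the punches were also computed without PF1. Levels below are CPM, counts scaled to library size with TMM factors, fold changes are log2 values from edgeR's quasi-likelihood test averaged over the sexes with the batch as a term, and genes were called at a Benjamini-Hochberg adjusted p under 0.05 over all genes tested. Each SE is the size of the log2 fold change divided by the square root of its edgeR F statistic. It therefore follows from the test and is not a separate measure of spread.

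Myelin proteins fall into groups by where they sit in the sheath. Mbp glues the cytoplasmic faces of compact myelin together, and Mobp is a further abundant protein of the compact part. Cldn11 is the claudin that forms the tight junctions between myelin layers, and Mal is a proteolipid of the lipid rafts that sort myelin membrane. Mag is an adhesion protein that faces the axon, Mog is displayed on the outermost layer, and Cnp is an enzyme of the non-compact parts that keeps cytoplasmic channels open. Ermn is a cytoskeletal protein of the outer lip of the sheath, and Opalin is a membrane protein restricted to oligodendrocytes. Transcription of such genes late in oligodendrocyte life is driven by Sox10 and Myrf, and Myrf is made once the cells leave the precursor stage.

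The promoters of 5 members are shown. These are not the 5 with the largest changes: Ermn, called at both times below, is not among them. Each is the 300-base window of RefSeq (GRCm38.p6) from 250 bases before to 50 bases after a start site, printed 5′ to 3′ on the strand of the gene. Capitals mark ACAAAG, the core that Sox proteins bind, and CTGGNAC, a permissive pattern for Myrf in which N is any base. Both were sought on either strand, so CTTTGT and GTNCCAG are the same motifs read from the other strand. A match to the permissive pattern need not be a site that Myrf binds. Neither motif overlaps the other in these windows. The windows lie at chr3:31149670-31149969 on the plus strand (Cldn11), chr7:30914814-30915113 on the minus strand (Mag), chr9:120149492-120149791 on the plus strand (Mobp), chr17:37023349-37023648 on the minus strand (Mog) and chr11:100574689-100574988 on the plus strand (Cnp).
Cldn11: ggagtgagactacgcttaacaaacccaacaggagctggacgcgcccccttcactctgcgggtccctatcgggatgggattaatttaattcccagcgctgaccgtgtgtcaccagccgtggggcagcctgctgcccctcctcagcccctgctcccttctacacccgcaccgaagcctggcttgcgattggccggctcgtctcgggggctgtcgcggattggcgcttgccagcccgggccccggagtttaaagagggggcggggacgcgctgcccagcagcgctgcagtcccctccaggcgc
Mag: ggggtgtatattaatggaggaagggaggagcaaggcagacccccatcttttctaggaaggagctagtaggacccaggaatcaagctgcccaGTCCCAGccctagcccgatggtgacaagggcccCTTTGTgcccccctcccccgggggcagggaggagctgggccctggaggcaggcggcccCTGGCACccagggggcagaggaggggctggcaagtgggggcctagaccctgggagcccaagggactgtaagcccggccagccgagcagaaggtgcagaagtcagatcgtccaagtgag
Mobp: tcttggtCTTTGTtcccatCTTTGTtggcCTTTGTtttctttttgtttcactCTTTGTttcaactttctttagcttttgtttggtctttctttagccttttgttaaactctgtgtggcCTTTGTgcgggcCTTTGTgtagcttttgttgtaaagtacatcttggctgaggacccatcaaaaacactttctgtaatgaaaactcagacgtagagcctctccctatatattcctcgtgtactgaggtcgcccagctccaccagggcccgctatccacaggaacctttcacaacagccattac
Mog: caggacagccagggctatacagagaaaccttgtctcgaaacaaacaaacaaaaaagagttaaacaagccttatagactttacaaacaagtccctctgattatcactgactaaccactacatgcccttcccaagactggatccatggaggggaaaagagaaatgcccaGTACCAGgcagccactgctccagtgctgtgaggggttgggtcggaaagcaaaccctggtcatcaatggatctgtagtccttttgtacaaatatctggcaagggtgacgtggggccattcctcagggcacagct
Cnp: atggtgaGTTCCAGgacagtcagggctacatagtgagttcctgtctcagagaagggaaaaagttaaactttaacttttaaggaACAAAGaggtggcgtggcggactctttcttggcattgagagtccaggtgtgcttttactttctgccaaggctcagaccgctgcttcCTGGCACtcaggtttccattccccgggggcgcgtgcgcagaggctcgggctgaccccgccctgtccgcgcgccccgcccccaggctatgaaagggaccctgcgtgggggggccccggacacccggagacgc

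Among the 8 members with a window used here, ACAAAG was found in 4 (Mobp, Mag, Cnp, Opalin) and CTGGNAC in 4 (Mag, Cnp, Mog, Opalin). Of 32851 promoter windows of the same length in the table, 18.7% hold ACAAAG and 19.3% hold CTGGNAC. The Mobp window holds 6 copies of ACAAAG, while the windows of Cldn11, Ermn and Mal hold neither motif. A match is a description of the letters in the window. For Mag, which has 3 windows in the table, the one nearest the annotated start is shown.

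Per kilobase of exon, Mbp was the most abundant member in naive ipsilateral cortex and Opalin the least abundant. The lowest, median and highest of the 13 naive ipsilateral libraries were 76.3, 145.4 and 285.3 CPM per kilobase for Mbp. The same 3 values were 2.51, 4.10 and 8.72 CPM per kilobase for Opalin. Between them stood, by median CPM per kilobase, Mobp (55.7), Cnp (51.3), Mal (47.0), Cldn11 (37.4), Mag (19.8), Mog (16.4) and Ermn (7.13). Mbp was above Mobp in 13 of 13 libraries, and Cldn11 was above Mag and Mag above Mog in 13 of 13. Mobp was above Cnp in only 4 of 13 libraries and Mal above Cldn11 in 7 of 13, so these neighbours do not differ beyond their spread. At 72 h Cldn11 stood second on the ipsilateral side at a median of 151.1 CPM per kilobase, above Cnp in 15 of 15 libraries. In the contralateral punch at 72 h it stood below Mbp, Cnp and Mobp, at 44.8 CPM per kilobase.

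**Figure D1:**
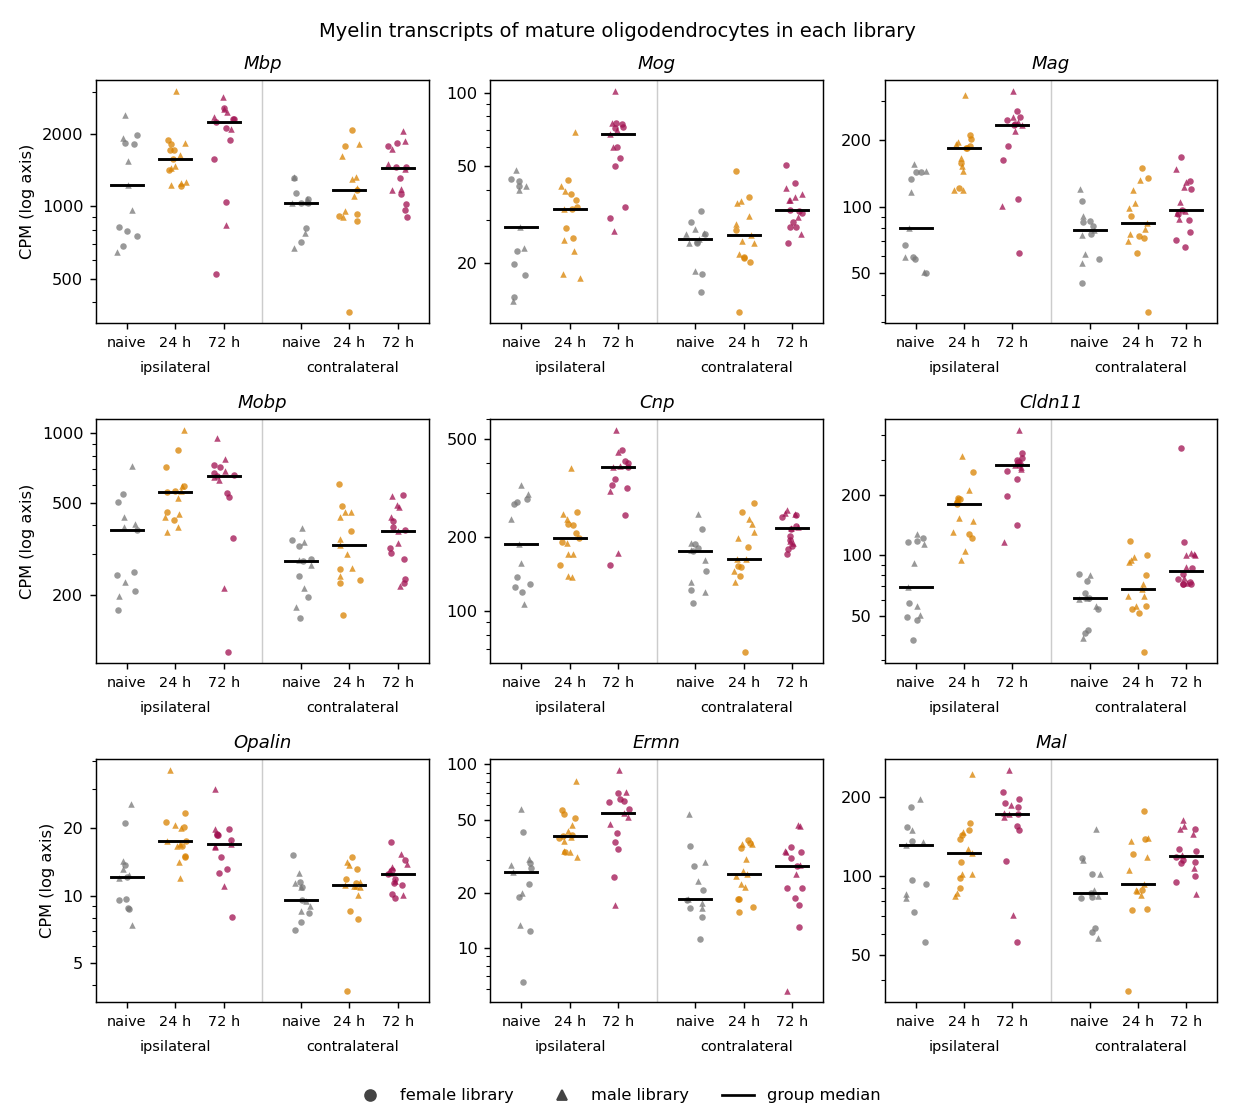
CPM of each myelin transcript (log axis) in every assigned library, with ipsilateral groups left of contralateral ones and naive, 24 h and 72 h in order of time; circles are females, triangles are males and lines are group medians. On the ipsilateral side the 72 h median of Cldn11 (282.5 CPM) stands above its 24 h median (181.5 CPM) and naive median (69.9 CPM), and the lowest 72 h library of Mbp (520.3 CPM) and of Mobp (113.6 CPM) is that of LF3.

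In the injured cortex at 24 h, 5 of the 9 transcripts were higher than in naive cortex and none was lower. These were Cldn11, Ermn, Mag, Mobp and Opalin, by 0.47 to 0.96 on the log2 scale. Of all 19126 genes tested in that comparison 22.9% rose and 20.1% fell. Mbp, Mog, Cnp and Mal lay between -0.08 and 0.19 and were not called. The median of the 9 log2 fold changes was 0.47, beside 0.01 for all genes tested.

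Cldn11, the claudin of myelin, moved most. Its lowest, median and highest values were 37.8, 69.9 and 127.7 CPM in naive ipsilateral punches. At 24 h they were 94.6, 181.5 and 314.3 CPM, and at 72 h 116.2, 282.5 and 422.9 CPM. At 24 h 12 of 15 libraries and at 72 h 14 of 15 were above the highest naive library, so the groups overlapped by a few libraries alone. The log2 fold change against naive was 0.96 ± 0.17 (SE) at 24 h and 1.57 ± 0.25 at 72 h, with edgeR adjusted p of 1.30e-05 and 2.09e-06. Both changes held inside single batches: at 24 h the value was 1.03 in batch A alone and 0.87 in batch B alone, and at 72 h 1.54 in batch B alone, all called.

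Mag, the adhesion protein of the inner, axon-facing layer, was raised at both times. It had 50.5, 80.4 and 157.0 CPM as its lowest, median and highest values in naive punches, 118.8, 184.0 and 321.9 CPM at 24 h and 61.8, 235.1 and 335.3 CPM at 72 h. At 24 h 10 of 15 libraries and at 72 h 12 of 15 exceeded every naive library, with LF3 at the bottom of the 72 h group. Against naive, Mag stood 0.76 ± 0.19 (SE) higher on the log2 scale at 24 h and 0.85 ± 0.28 higher at 72 h (edgeR adjusted p = 0.00113 and 0.0118). In batch B alone it was 0.54 at 24 h and 0.74 at 72 h and not called (edgeR adjusted p = 0.190 and 0.0777), whereas in batch A alone the 24 h value was 0.92 and called.

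Ermn, which sits at the outer lip of the sheath, rose by 0.83 ± 0.23 (SE) at 24 h and by 1.38 ± 0.33 at 72 h on the log2 scale (edgeR adjusted p = 0.00275 and 0.000733). Its lowest, median and highest values were 6.56, 25.9 and 56.8 CPM in naive punches, 31.4, 40.5 and 81.3 CPM at 24 h and 17.2, 54.2 and 93.3 CPM at 72 h. The groups overlapped more than for Cldn11: 1 of 15 libraries at 24 h and 7 of 15 at 72 h were above the highest naive library. The naive libraries of Ermn spread widely, and the highest of them came from the male CM1. Batch B alone gave called values of 1.24 at 24 h and 1.69 at 72 h, and batch A alone gave 0.57 at 24 h, also called.

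Mobp, the other compact-myelin protein named here, was called at 24 h and not at 72 h, with nearly equal estimates. Its lowest, median and highest values were 171.6, 381.6 and 723.8 CPM in naive punches, 373.2, 557.8 and 1028 CPM at 24 h and 113.6, 650.2 and 950.1 CPM at 72 h. Only 2 of 15 libraries at 24 h and 3 of 15 at 72 h were above the highest naive one. On the log2 scale the difference from naive was 0.56 ± 0.22 (SE) at 24 h (edgeR adjusted p = 0.0352) and 0.51 ± 0.33 at 72 h (0.201). The 24 h call was lost on leaving out any 1 of 11 libraries (DF3, FF3, QF1, FM3 and RM1 at 24 h, and CF2, GF3, EM3, GM2, KM2 and KM3 among naive mice), at 0.48 to 0.55 with edgeR adjusted p of 0.0509 to 0.0834. It was also lost in each batch alone, at 0.59 in batch A and 0.52 in batch B. At 72 h, without LF3, the value was 0.76 and called (edgeR adjusted p = 0.0318).

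Opalin, the oligodendrocyte membrane protein, was also called at 24 h and not at 72 h. It had 7.38, 12.1 and 25.7 CPM as lowest, median and highest values in naive punches, 12.1, 17.5 and 36.4 CPM at 24 h and 8.06, 17.1 and 29.8 CPM at 72 h. At 24 h 14 of 15 and at 72 h 13 of 15 libraries were above the naive median, yet 1 of 15 exceeded every naive library at each time. Its log2 fold change was 0.47 ± 0.17 (SE) at 24 h (edgeR adjusted p = 0.0189) and 0.42 ± 0.25 at 72 h (0.158). Without the 24 h female DF3 the first was 0.39 and no longer called (edgeR adjusted p = 0.0594), and it was not called in either batch alone (0.35 in A, 0.65 in B). Without LF3 the 72 h value was 0.58 and called (edgeR adjusted p = 0.0466).

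At 72 h, 5 of 9 transcripts were above naive, and none was below, while 27.8% of the 19126 genes tested rose and 20.7% fell. Cldn11, Ermn and Mag were among them as at 24 h, and Mog and Cnp were called at this time. All 9 estimates were above 0, from 0.29 for Mal to 1.57 for Cldn11, with a median of 0.62 beside 0.06 for all genes. The count was 7 without LF3, where Mobp and Opalin were called as well. It was 2 without the male PM2, whose ipsilateral punch was the highest at 72 h for 9 of 9 members; only Cldn11 (1.43) and Ermn (1.15) were then called. In batch B alone, with 5 mice at 72 h against 4 naive mice, Cldn11 and Ermn were called, and without the batch term all 9 were. Batch C holds no naive mice, so most of the 72 h animals meet naive animals through batch B only.

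Mog, the surface protein of the outermost layer, changed late. Its lowest, median and highest values were 13.9, 28.0 and 48.0 CPM in naive punches, 17.4, 33.2 and 68.8 CPM at 24 h and 26.9, 67.6 and 101.9 CPM at 72 h. At 24 h 1 of 15 libraries was above the highest naive library, and at 72 h 12 of 15 were. The log2 fold change against naive was 0.02 ± 0.19 (SE) at 24 h (edgeR adjusted p = 0.945) and 0.83 ± 0.28 at 72 h (0.0139). Between 72 h and 24 h the difference was 0.81 ± 0.26 (edgeR adjusted p = 0.0138), and it was 0.91 in batch B alone, also called. Without PM2 the 72 h values were 0.66 against naive and 0.65 against 24 h and were not called (edgeR adjusted p = 0.0738 and 0.0745).

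Cnp, the enzyme of non-compact myelin, was likewise called at 72 h and not at 24 h. It had 106.3, 186.6 and 325.7 CPM as lowest, median and highest values in naive punches, 137.7, 198.2 and 382.4 CPM at 24 h and 154.1, 384.2 and 541.2 CPM at 72 h. At 72 h 9 of 15 libraries were above every naive library, beside 1 of 15 at 24 h. Against naive its log2 fold change was -0.08 ± 0.16 (SE) at 24 h (edgeR adjusted p = 0.747) and 0.62 ± 0.24 at 72 h (0.0339), and 0.70 ± 0.23 between 72 h and 24 h (0.0147). The call against naive was lost without any 1 of LM2, PM2, PF1, PF2 or the naive male KM2, at 0.47 to 0.61 with edgeR adjusted p of 0.0510 to 0.138, and in batch B alone (0.55, 0.109). The call against 24 h was lost without PM2 (0.56, edgeR adjusted p = 0.0725). Exons of Cnp overlap those of Dnajc7, a co-chaperone gene on the opposite strand that drew 165731 counts in all, beside 327786 for Cnp. The strand used in counting is not given, so reads of these 2 genes cannot be told apart where they overlap.

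Between 72 h and 24 h on the ipsilateral side, 3 of 9 transcripts rose (Mog, Cnp and Cldn11), and none fell, while 21.7% of all genes tested rose and 15.3% fell. Cldn11 rose by 0.61 ± 0.24 (SE; edgeR adjusted p = 0.0409). That call was lost on leaving out any 1 of PM2, LF3, QF2, RF1, RF2, QM1, RM2 or the naive male KM2, at 0.48 to 0.60. In batch B alone, where both times are present, Mog, Cnp and Cldn11 were all called. Without PM2 none of the 9 was called by edgeR. Without the male RM1, which had the highest value of all 9 transcripts at 24 h, Ermn was called as well, at 0.72 (edgeR adjusted p = 0.0483).

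Mbp and Mal, the most abundant member and the raft proteolipid, were not called on the ipsilateral side at either time. Mbp had 646.1, 1231 and 2416 CPM as lowest, median and highest values in naive punches, 1216, 1584 and 3035 CPM at 24 h and 520.3, 2241 and 2865 CPM at 72 h. Its 72 h libraries lay above the naive median in 12 of 15 cases, with LF3 and TM2 the lowest at 520.3 and 836.2 CPM. The log2 fold change was 0.19 ± 0.20 (SE) at 24 h and 0.37 ± 0.30 at 72 h (edgeR adjusted p = 0.466 and 0.309). Mal had 55.8, 130.5 and 196.5 CPM in naive punches, 83.4, 122.2 and 244.1 CPM at 24 h and 55.9, 171.0 and 252.4 CPM at 72 h. Its log2 fold change was -0.01 ± 0.18 (SE) at 24 h and 0.29 ± 0.27 at 72 h (edgeR adjusted p = 0.963 and 0.402). Without LF3 the 72 h values were 0.60 for Mbp and 0.49 for Mal, and without PM2 that of Mal was 0.09, none of them called (edgeR adjusted p = 0.0682, 0.117 and 0.818).

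**Figure D2:**
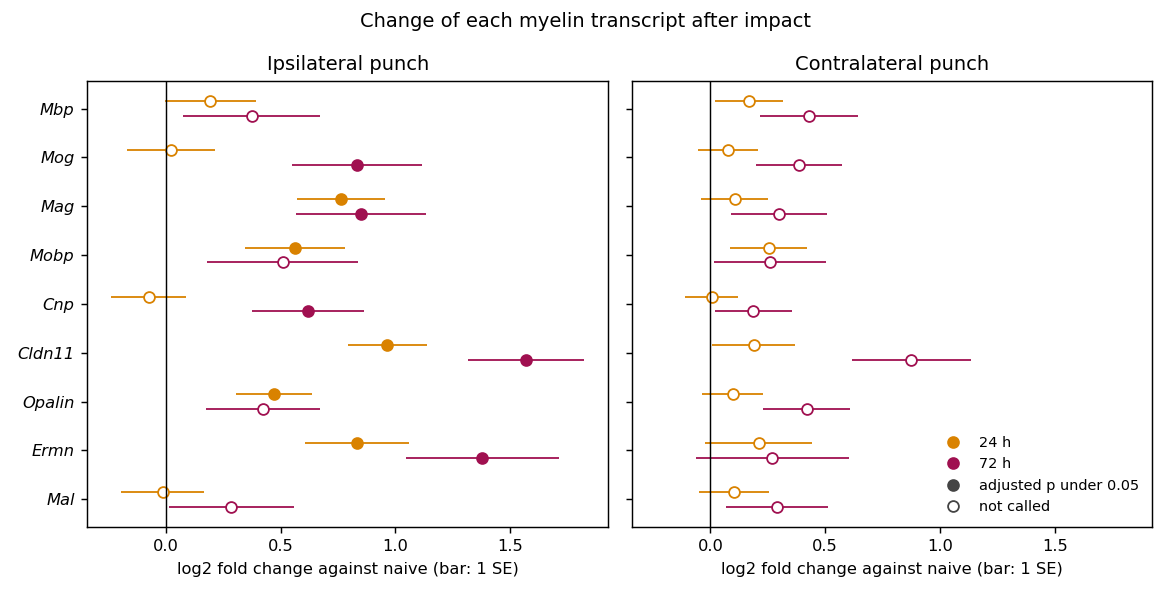
Log2 fold change of each myelin transcript against naive mice at 24 h and 72 h (points) with 1 SE (bars), ipsilateral punch on the left and contralateral punch on the right; filled points have an edgeR adjusted p under 0.05. On the ipsilateral side 5 of 9 are filled at each time, and no point of the contralateral panel is filled.

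In the contralateral cortex, averaged over the sexes, none of the 9 transcripts was called by edgeR. At 24 h against naive the log2 fold changes ran from 0.01 for Cnp to 0.25 for Mobp, beside 0.819% of 18436 genes that rose. None of the 9 had an unadjusted edgeR p under 0.05 there, while 2506 of the 18436 genes did in either direction. At 72 h against naive all 9 were above 0, with a median of 0.30, and 0.244% of genes were called higher. An unadjusted edgeR p under 0.05 was found for 3 of the 9 there, and for 3047 of the 18436 genes in either direction. At 72 h against 24 h 8.41% of genes were called higher. For that comparison 1 member had an unadjusted edgeR p under 0.05, as did 4627 of the 18436 genes in either direction. DESeq2 called none of the 9 in these 3 comparisons either.

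The largest contralateral value against naive was that of Cldn11 at 72 h. Its lowest, median and highest values were 38.8, 61.2 and 81.2 CPM in naive punches, 32.9, 68.2 and 118.8 CPM at 24 h and 71.7, 83.9 and 346.8 CPM at 72 h. All 16 libraries at 72 h were above the naive median, and 8 of 16 were above the highest naive library. The highest came from LF3, and the next had 116.2 CPM. The log2 fold change against naive was 0.87 ± 0.26 (SE; edgeR adjusted p = 0.103), and without LF3 it was 0.27 (0.960). With LF3 kept and PF1 or PF2 left out it was 0.98 or 0.99 and called (edgeR adjusted p = 0.0240 and 0.0234). The value against 24 h was 0.69 ± 0.24 (SE; edgeR adjusted p = 0.0569) and 0.08 without LF3. It was called, at 0.74 to 0.82, without any 1 of PF1, PF2, PM1, PM2, LM2 or RF2. In females alone, LF3 included, it was 0.87 ± 0.28 (SE; edgeR adjusted p = 0.0399) and called, where 10.4% of all genes rose, and it was the only contralateral member value called in either sex alone. Without LF3 that value was 0.05 (edgeR adjusted p = 1.0). The call was also lost without any 1 of the 24 h females DF3, FF3, QF1 or RF1, at 0.71 to 0.85, without TMM factors (0.49), with upper-quartile factors (0.75), without the batch term (0.68) and in batch B alone (1.13).

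Both punches of each animal were then compared with the animal as a block, which keeps each comparison inside 1 batch. At 72 h 9 of 9 transcripts were higher in the ipsilateral than in the contralateral punch, where 31.1% of 19946 genes were higher. At 24 h it was 6 of 9, where 23.7% of genes were higher, and in naive mice 0 of 9, where 0.0% of genes were. In naive mice all 9 estimates were above 0, from 0.09 for Ermn to 0.37 for Cldn11, and 3 had an unadjusted edgeR p under 0.05. Of the 19946 genes, 574 had such a p between the naive punches, in either direction. DESeq2 called 0 of 9 there, but some members were called when the filter on low counts was left out.

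**Figure D3:**
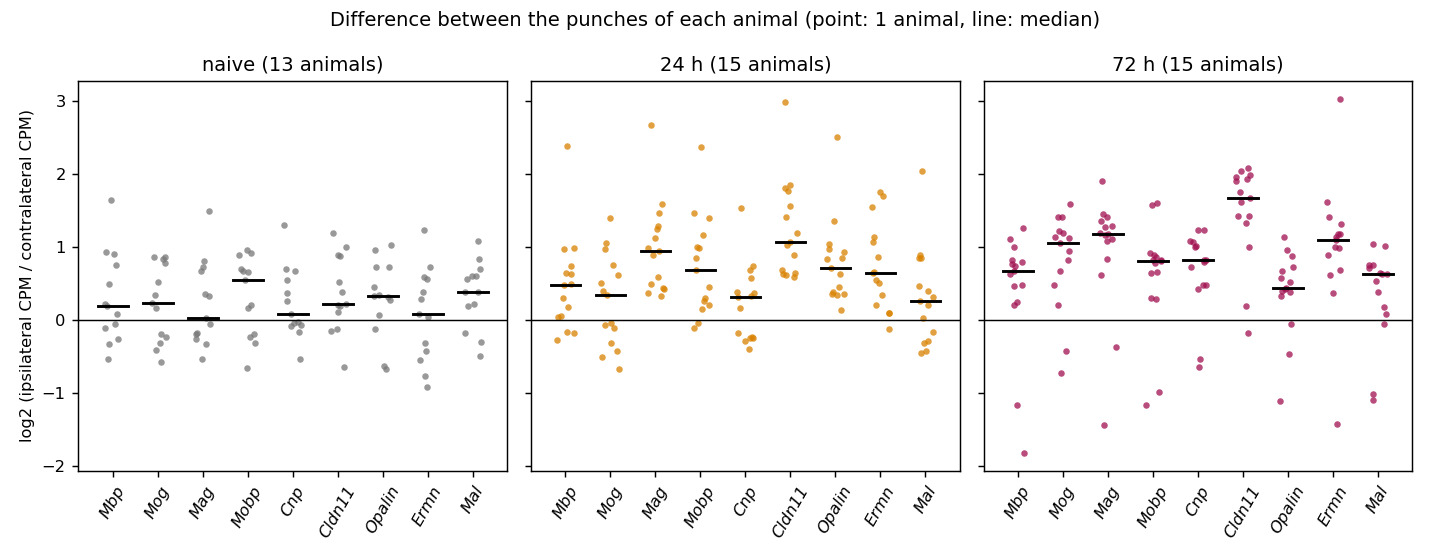
Log2 ratio of ipsilateral to contralateral CPM for each myelin transcript in each animal (points) with the median (lines), for 13 naive mice, 15 mice at 24 h and 15 mice at 72 h. Cldn11 is above 0 in 15 of 15 animals at 24 h and 14 of 15 at 72 h, against 10 of 13 naive animals.

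Cldn11 again led. Its lowest, median and highest log2 ratios between the punches of an animal were -0.64, 0.22 and 1.20 in naive mice, 0.59, 1.07 and 2.99 at 24 h and -0.18, 1.67 and 2.09 at 72 h. It was higher on the ipsilateral side in 10 of 13, 15 of 15 and 14 of 15 animals at the 3 times, and the exception at 72 h was LF3. The fitted difference was 1.24 ± 0.16 (SE) at 24 h and 1.48 ± 0.16 at 72 h (edgeR adjusted p = 4.16e-09 and 3.57e-11). Mag came next at 24 h, at 0.98 ± 0.17 (SE; edgeR adjusted p = 2.92e-06), and stood at 0.96 ± 0.17 at 72 h (3.75e-06). It was higher on the ipsilateral side in 15 of 15 animals at 24 h and 13 of 15 at 72 h, against 7 of 13 naive animals.

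Opalin, Mobp and Ermn had ipsilateral excesses of 0.73 to 0.78 at 24 h and of 0.41, 0.60 and 0.97 at 72 h, all called. Ipsilateral Opalin was higher in 15 of 15 animals at 24 h and in 12 of 15 at 72 h. Mbp was higher by 0.48 ± 0.17 (SE) at 24 h and by 0.43 ± 0.18 at 72 h (edgeR adjusted p = 0.0196 and 0.0325). The first call was lost without QF1 (0.35, edgeR adjusted p = 0.0813), whose contralateral punch was the lowest at 24 h for 8 of 9 members. The second was lost without any 1 of LM2, PF2, SF1, SF3, SM1, SM2 or TF2, at 0.36 to 0.41.

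Mog, Cnp and Mal were not called between the punches at 24 h, at 0.23 to 0.31 with edgeR adjusted p of 0.0861 to 0.147. At 72 h the excess was 0.82 ± 0.15 (SE) for Mog, 0.66 ± 0.13 for Cnp and 0.34 ± 0.15 for Mal (edgeR adjusted p = 8.06e-06, 2.81e-05 and 0.0438). The call for Mal was lost without any 1 of LM2, PF1, PF2, PM2, SF1, SF3, SM1, SM2, TF2 or TF3, at 0.28 to 0.34, and at 24 h Mal was called without DF2, QF2 or RF2, at 0.37 to 0.38. Without QF1 the 24 h values were 0.14 for Cnp and 0.18 for Mal, not called (edgeR adjusted p = 0.389 and 0.298). Without LF3 all 9 transcripts were called at 72 h, at 0.42 for Mal to 1.57 for Cldn11.

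Whether the side difference itself was larger in injured than in naive mice was tested in the same fit. At 24 h this held for 2 of 9 transcripts, Cldn11 (0.88 ± 0.23, SE; edgeR adjusted p = 0.00207) and Mag (0.77 ± 0.24; 0.0133), beside 16.0% of genes with a larger difference. At 72 h it held for 4 of 9, beside 25.1% of genes. These were Cldn11 (1.12 ± 0.23; edgeR adjusted p = 6.08e-05), Ermn (0.88 ± 0.27; 0.00517), Mag (0.75 ± 0.25; 0.0108) and Mog (0.59 ± 0.22; 0.0256). For Mbp and Mal these differences were 0.13 and -0.01 at 72 h and were not called (edgeR adjusted p = 0.721 and 0.981). Between 72 h and 24 h only Mog had a larger side difference, by 0.55 ± 0.21 (SE; edgeR adjusted p = 0.0380), beside 18.9% of genes.

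The design sets females beside males, and no member was called for sex. Females against males gave 0 of 9 on each side at each time, beside 0.0366% of all genes in naive mice, 0.0366% at 24 h and 0.0314% at 72 h on the ipsilateral side and 0.0325%, 0.038% and 0.038% on the contralateral side. The difference between the injury responses of females and males gave 0 of 9 in each of 4 tests, where 0.0% of genes were called. No member had an unadjusted edgeR p under 0.05 in any of these tests, and DESeq2 called none. The estimates of the female minus the male response at 24 h on the ipsilateral side ran from 0.14 for Mag to 0.42 for Ermn over the 9 members, each with an edgeR adjusted p of 1.0. Cldn11 rose in both sexes: at 24 h by 1.09 ± 0.24 (SE) in females and 0.84 ± 0.24 in males, both called by edgeR, where 16.2% and 16.1% of all genes rose. At 72 h it was again called in both sexes, where 26.7% of all genes rose in females and 20.8% in males. The 72 h females include the ipsilateral library of PF1, which carries Y-linked transcripts. With that library left out, Cldn11 stayed called in females at 72 h, and ipsilateral females against males gave 0 of 9 there. Ermn at 24 h was called in females (1.04 ± 0.31, SE; edgeR adjusted p = 0.00965) and had 0.62 in males, where it was not called. Without the naive male CM1 the value in males was 0.89 and called (edgeR adjusted p = 0.0329).

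The levels of the 9 transcripts were correlated across libraries once group means were removed. After log2 CPM was centred on group and batch, the 36 pairs of members had Pearson correlations of 0.61 to 0.98 over the 43 ipsilateral libraries (median 0.83). Over the 44 contralateral libraries they had correlations of 0.32 to 0.96 (median 0.80). These libraries share the punch, the depth and the scaling, and the values are descriptions. Mbp and Mag had the highest ipsilateral correlation, and Ermn had the lowest median on both sides, 0.65 and 0.52. The same libraries stood at the ends for many members. CM1 was the highest naive ipsilateral library for 9 of 9 members, RM1 the highest at 24 h for 9 of 9 and PM2 at 72 h for 9 of 9. LF3 was the lowest ipsilateral library at 72 h for 6 members and TM2 for 3. Members did not all stand at the same end in every library: contralateral LF3 was the highest at 72 h for 4 members and among the 2 lowest for 2.

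**Figure D4:**
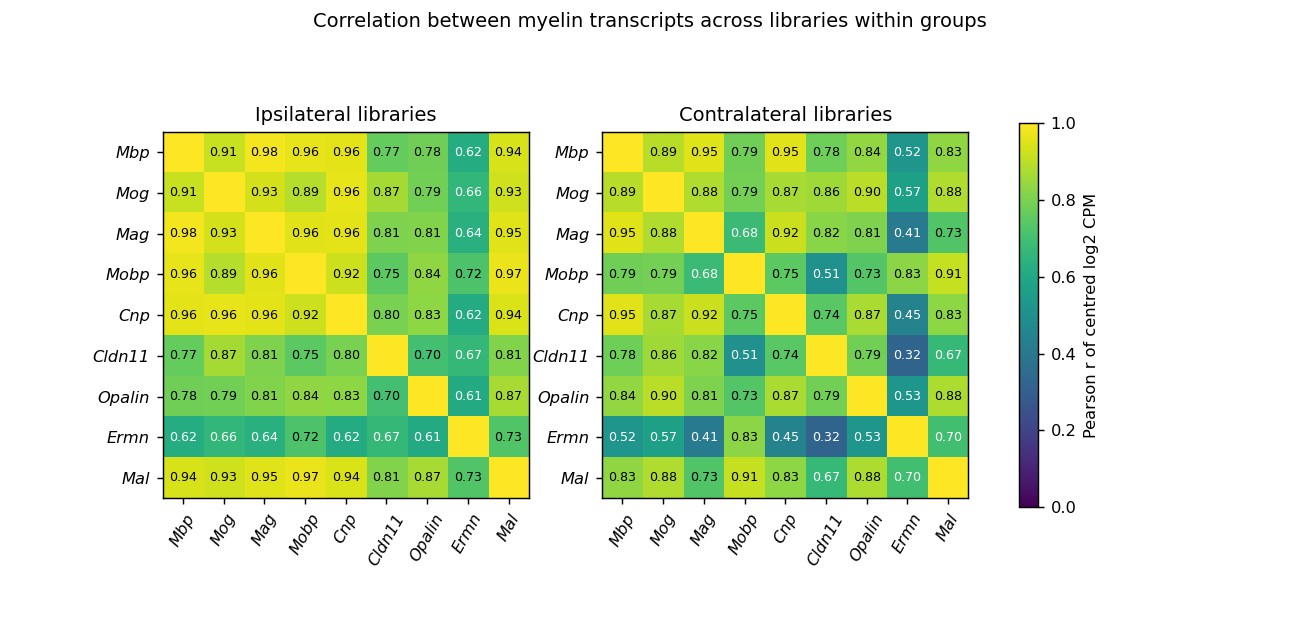
Pearson correlation between each pair of myelin transcripts after centring log2 CPM on sex, time and batch, over 43 ipsilateral libraries (left) and 44 contralateral libraries (right). Ermn has the lowest median correlation with the rest on both sides, at values of 0.65 and 0.52, while most pairs among Mbp, Mog, Mag, Cnp and Mal exceed 0.8.

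Outside the 9, the 8 transcripts most like their mean over the 87 assigned libraries included Bcas1 (0.93), Tmem63a (0.91), Myrf (0.91), Tspan2 (0.90), Hapln2 (0.89), Insc (0.89) and Pacs2 (0.88), out of 14024 genes compared by Pearson correlation of log2 CPM. After centring on group and batch the 8 included Plekhb1 (0.93), Bcas1 (0.92), Myrf (0.87), Tmem63a (0.85), Gpr37 (0.85) and Fa2h (0.85). For comparison, each member against the mean of the other 8 had 0.72 for Ermn to 0.95 for Mag over all libraries.

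Among 16 other proteins of myelin and its paranodes, 7 rose and 2 fell at 24 h in the ipsilateral punch, and 10 rose and 1 fell at 72 h. Of all 19126 genes tested there against naive, 22.9% rose and 20.1% fell at 24 h. At 72 h 27.8% of them rose and 20.7% fell. The same shares belong beside the list counts against naive in the paragraphs that follow. Anln, a septin-associated scaffold, had log2 fold changes of 1.19 ± 0.23 (SE) at 24 h and 2.00 ± 0.33 at 72 h (edgeR adjusted p = 3.08e-05 and 2.65e-06). Gjb1, the gap junction protein connexin of oligodendrocytes, had 1.42 ± 0.21 and 1.96 ± 0.31 (5.50e-07 and 1.29e-06), and Tmem88b had 1.00 ± 0.15 at 24 h (5.26e-07). Pllp, a raft proteolipid related to Mal, had 1.82 ± 0.30 at 72 h (edgeR adjusted p = 3.75e-06). Which cells of the punch made Anln and the other transcripts of this list was not tested.

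Of 8 enzymes of myelin lipids, 3 rose and 2 fell at 24 h, and 6 rose and none fell at 72 h. Elovl1 and Cers2, which make very-long-chain fatty acids and the ceramides that carry them, rose by 0.67 ± 0.08 (SE) and 0.57 ± 0.09 at 24 h and by 1.29 ± 0.12 and 1.08 ± 0.13 at 72 h, all called by edgeR. Whether these 2 transcripts came from oligodendrocytes or from other cells of the punch was not tested. Sgms1, a sphingomyelin synthase, fell by 0.39 ± 0.05 (SE) at 24 h (edgeR adjusted p = 1.93e-07). Ugt8a, which makes the galactolipids of myelin, was called at 72 h (1.45 ± 0.27, SE; edgeR adjusted p = 1.91e-05), and its 24 h value was -0.07.

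Of 10 oligodendrocyte transcription factors, 5 rose and 1 fell at 24 h, and 9 rose and none fell at 72 h. St18, Sox10 and Myrf rose at 24 h by 1.42 ± 0.22, 0.72 ± 0.12 and 0.98 ± 0.17 (SE; edgeR adjusted p = 9.71e-07, 2.13e-06 and 5.50e-06). Sox10 had a median of 28.8 CPM in naive punches, 49.2 CPM at 24 h and 74.9 CPM at 72 h. Olig1, Olig2 and Nkx2-2 led at 72 h, at 1.51 ± 0.16, 1.41 ± 0.16 and 1.79 ± 0.22 (SE; edgeR adjusted p = 2.21e-10, 2.19e-09 and 9.05e-09), and their 24 h values were -0.09, 0.50 and 0.10, of which that of Olig2 was called. These factors are also present in precursors, which do not make the 9 myelin proteins in quantity.

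Genes of premyelinating oligodendrocytes, the stage between precursor and myelinating cell, differed between the times. Of 7, 2 rose and 4 fell at 24 h, and 6 rose and none fell at 72 h. Beside these counts, 22.9% of all genes rose and 20.1% fell at 24 h, and 27.8% and 20.7% at 72 h. Gpr17, a receptor of that stage, had a median of 48.3 CPM in naive punches, 22.4 CPM at 24 h and 140.1 CPM at 72 h. Its log2 fold changes were -1.03 ± 0.10 (SE) and 1.48 ± 0.15 (edgeR adjusted p = 8.87e-11 and 1.94e-10). Neu4, a sialidase, fell by 1.46 ± 0.12 (SE) at 24 h (edgeR adjusted p = 3.85e-13) and Bmp4, a growth factor, by 1.01 ± 0.21 (0.000128). Bcas1, which premyelinating and early myelinating cells make, rose by 1.18 ± 0.24 (SE) at 72 h (edgeR adjusted p = 7.30e-05).

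**Figure D5:**
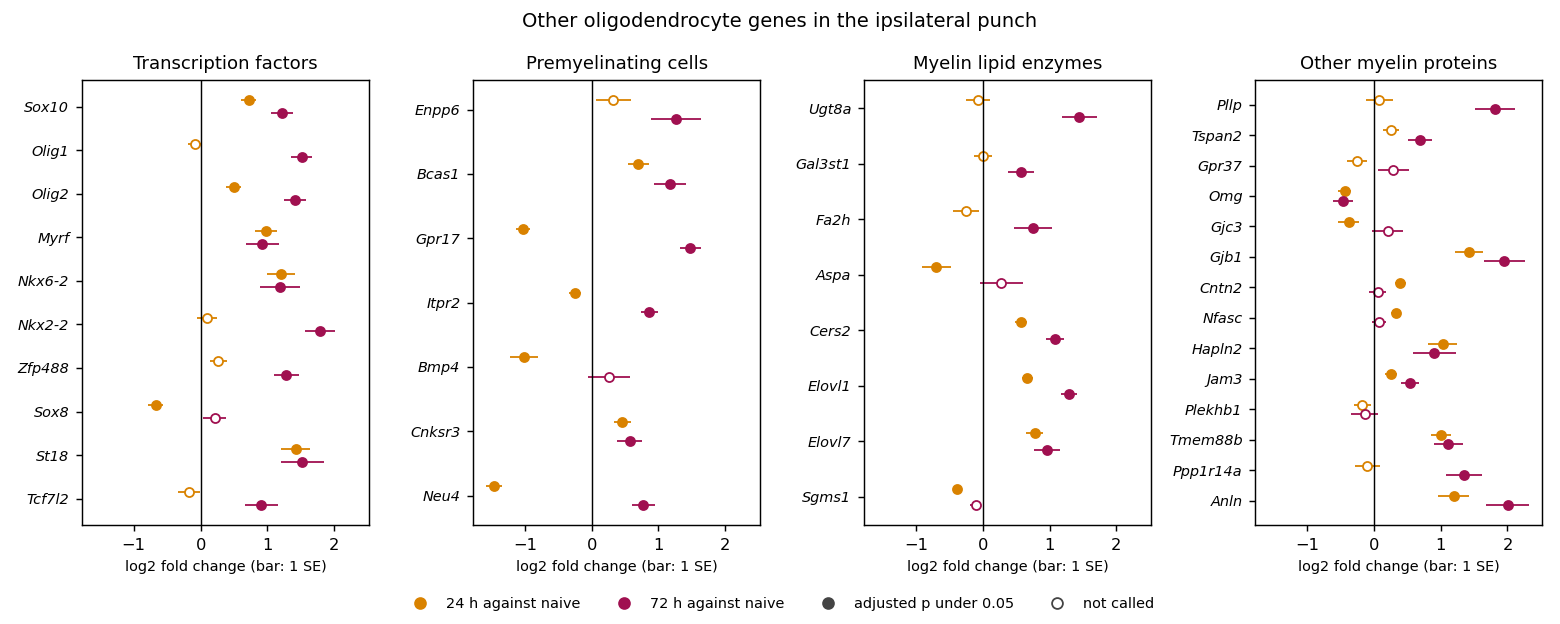
Log2 fold change against naive mice in the ipsilateral punch at 24 h and 72 h (points, bars 1 SE) for 10 transcription factors, 7 genes of premyelinating cells, 8 myelin lipid enzymes and 14 of the 16 other myelin proteins; filled points have an edgeR adjusted p under 0.05. Gpr17 lies at -1.03 at 24 h and 1.48 at 72 h, whereas Sox10 lies above 0 at both times.

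Markers of other tissue in the same ipsilateral punches also moved, and their part in the myelin values was not tested. Across all genes tested, 22.9% rose and 20.1% fell at 24 h, and 27.8% rose and 20.7% fell at 72 h. Of 12 genes of the neighbouring hippocampus, striatum and thalamus, 8 rose and 3 fell at 24 h, and 8 rose and 2 fell at 72 h. Rgs9, a striatal signalling regulator, rose by 1.21 ± 0.15 (SE) and 1.31 ± 0.22, Ppp1r1b by 1.44 ± 0.18 at 24 h and Adora2a by 2.29 ± 0.33 at 72 h, all called by edgeR. The summed level of these 12 genes ran from 292.2 to 403.6 CPM in naive punches, from 363.5 to 494.0 CPM at 24 h and from 299.7 to 534.1 CPM at 72 h. The medians of that sum were 345.3, 452.1 and 355.5 CPM. Of 10 neuronal genes, 1 rose and 3 fell at 24 h, and 1 rose and 5 fell at 72 h. Their summed level ran from 10970 to 13350 CPM in naive punches, from 9144 to 11560 CPM at 24 h and from 5188 to 15990 CPM at 72 h. The medians of the neuronal sum were 12450, 10820 and 7914 CPM.

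Cldn11 is also made in the arachnoid, and most listed genes of that layer fell at 24 h; their part in the Cldn11 values was not tested. Of 12 arachnoid and meningeal genes, 2 rose and 9 fell at 24 h, and 3 rose and 5 fell at 72 h. For this and the other lists here, 22.9% of all genes rose and 20.1% fell at 24 h. At 72 h 27.8% of all genes rose and 20.7% fell. Fmod, a matrix proteoglycan, fell by 3.72 ± 0.34 (SE) and Slc22a6, a transporter, by 2.92 ± 0.28 at 24 h, both called by edgeR. The summed level of the 12 genes ran from 66.7 to 241.1 CPM in naive punches, from 23.9 to 59.0 CPM at 24 h and from 44.7 to 161.7 CPM at 72 h. Among Schwann cell genes, which mark peripheral myelin, Pmp2 had a median of 0.0 CPM in every group, and of the 4 that passed the filter none was called against naive at 24 h. At 72 h Egr2, which neurons also make, fell by 1.85 ± 0.78 (SE; edgeR adjusted p = 0.0471). The summed level of the 6 Schwann cell genes ran from 13.1 to 39.2 CPM in naive punches, from 12.3 to 45.2 CPM at 24 h and from 8.55 to 32.6 CPM at 72 h. T lymphocytes express Mal, and the summed level of 7 of their genes stayed at or under 3.07 CPM in every ipsilateral library; only 2 of the 7, Lck and Trac, passed the filter, and neither was called against naive. Of 8 microglia and macrophage genes, 5 rose and 2 fell at 24 h, and 8 rose at 72 h. Of 6 endothelial genes, 2 rose and 2 fell at 24 h, and 4 rose at 72 h. Of 8 astrocyte genes, 2 rose and 5 fell at 24 h, and 3 rose and 2 fell at 72 h.

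The same lists were read between the punches of an animal, the comparison in which 9 of 9 members were higher on the ipsilateral side at 72 h, and their part in the member values was not tested there either. Of the 4 Schwann cell genes tested, 1 was higher at 24 h (Egr2), and 3 were higher at 72 h (Prx, Ncmap and Cdh19, by 0.46 to 0.73) while Egr2 was lower. Both T lymphocyte genes tested were higher at 24 h, Lck by 0.51 and Trac by 1.02, and Trac was higher at 72 h by 0.71. Of 12 arachnoid and meningeal genes, 2 were higher and 10 lower at 24 h, and 3 higher and 9 lower at 72 h. Of the 12 genes of hippocampus, striatum and thalamus, 8 were higher and 3 lower at 24 h, and 7 higher and 3 lower at 72 h. Neuronal genes were lower for 8 of 10 at 72 h, and microglia and macrophage genes were higher for 8 of 8. All these calls were made by edgeR, where 23.7% of the 19946 genes tested were higher at 24 h and 31.1% at 72 h. The share of all genes called lower is not given here, so the counts of lower genes stand without it. In either direction, 10568 genes at 24 h and 12890 at 72 h had an unadjusted edgeR p under 0.05.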

How the data were processed

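The deposited table gives raw read counts per gene for 88 libraries, made by the authors with HISAT2 2.0.5 on mm10, per the submitters' processing notes; which counter, annotation and strand setting followed is not given in the sources used here. Of 54532 genes, 54495 matched GENCODE M21 and 37 (0.013% of counts) did not. Each side was fitted alone with sex by time groups and batch (43 ipsilateral libraries, 44 contralateral), and both sides together with the animal as a block (86 libraries, 43 animals with both), in edgeR 4.0.16 (quasi-likelihood, TMM, R 4.3.3), tested on simulated data. DESeq2 1.42.0 was an alternative, beside other scalings, no filter, no batch term, single batches and left-out libraries. The same-animal pairing comes from the animal labels. CPM are TMM-scaled over all libraries, and 2 was the prior count for log2 CPM in correlations. Other genes were named as the 3 with the smallest p per list and the 8 most like the members. Some genes that these rules or lists hold are counted but not reported by name here. The members and lists were chosen with earlier results of these data known. No replicates agreed within sampling noise (smallest chi-square 2.64 per gene).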

Additional observations from a re-analysis of the deposited data

Results flagged for a closer look

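Of 108 groups of members and samples examined for a single value far from the others, 12 held one. Chance gives about 1 in 20 for independent tests. The 9 members share their libraries and are correlated, so the count cannot be set against that rate. The 24 h male RM1 accounts for 8 of the 12, on the ipsilateral side. Its Mbp was 3035 CPM, with the other males of that group at 1234 to 1831, its Mobp 1028 CPM (373.2 to 590.6) and its Mag 321.9 CPM (118.8 to 196.4). Its Cnp was 382.4 CPM (137.7 to 247.1), its Mal 244.1 CPM (83.4 to 147.0) and its Mog 68.8 CPM (17.4 to 41.2). Its Ermn was 81.3 CPM (31.4 to 46.9) and its Opalin 36.4 CPM (12.1 to 20.6). Contralateral Cldn11 of the 72 h female LF3 was 346.8 CPM, with the others at 71.7 to 116.2. Among naive ipsilateral punches, Opalin was 21.2 CPM in the female CF3 (others 8.78 to 13.8) and 25.7 CPM in the male CM1 (7.38 to 14.2). Contralateral Ermn of CM1 was 53.5 CPM (16.5 to 29.3).

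The difference between the punches of an animal was itself larger at one time than at another for some members, by the interaction term in edgeR. At 24 h against naive this held for Mag (0.77, adjusted p = 0.0133) and Cldn11 (0.88, 0.00207). At 72 h against naive it held for Mog (0.59, 0.0256), Mag (0.75, 0.0108), Cldn11 (1.12, 6.08e-05) and Ermn (0.88, 0.00517), and at 72 h against 24 h for Mog (0.55, 0.0380).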

How the results depend on the processing

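Of 4189 alternative values for single members, 3885 kept their direction and side of the threshold, 161 lost and 51 gained the call, and 92 changed sign; the cause was not tested. Counts of members called moved as follows. Between the punches of naive mice, 4 were called without the filter. For the side difference at 24 h against naive, 4 were called without TMM, 5 without the filter and 4 by DESeq2. For 72 h against 24 h, 2 were called without TMM, 4 without the filter, 2 by DESeq2 and 2 without the replicate block, which moved no other count. Ipsilateral counts at 24 h against naive were 3 in batch A and 2 in batch B, and at 72 h 9 without the batch term and 2 in batch B. Contralateral counts at 72 h were 3 without the batch term and 1 without PF1, and against 24 h 1 without PF1. Leaving out each library gave 3 to 5 called for ipsilateral 24 h against naive, 2 to 7 for 72 h and 0 to 4 for 72 h against 24 h, and 0 to 1 for both contralateral 72 h comparisons. Side-difference contrasts were not run that way.

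Some estimates changed sign under another setting. For the side difference at 24 h they were Mog -0.0086 and Cnp -0.074 without the block, and Cnp -0.020 with upper-quartile factors. At 72 h Mal was 0.10 without TMM, 0.0036 without the filter, 0.011 by DESeq2 and 0.014 without the block. For 72 h against 24 h, without TMM and without the block, Mbp was 0.026 and 0.049 and Mag 0.054 and 0.039. On the ipsilateral side at 24 h, batch B gave Mbp -0.0042 and Mog -0.15, and upper-quartile factors gave Mog -0.0060. Cnp was 0.012 without TMM, 0.013 without the batch term and 0.040 in batch A, and Mal 0.073, 0.059 and 0.019 there and 0.0070 without the filter. At 72 h against 24 h Mobp was 0.064 without the batch term, 0.00064 in batch B and 0.20 without LF3, and Opalin 0.11 without LF3. On the contralateral side at 24 h Cnp was -0.0040 in batch B, and Ermn -0.17 and Mal -0.010 in batch A. At 72 h against 24 h Mobp was -0.074 without TMM, -0.021 with upper-quartile factors, -0.0089 without the filter, -0.10 in batch B and -0.060 without PF1, and Ermn -0.014 without TMM, -0.13 in batch B and -0.061 without PF1.

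Leaving out each library or animal also turned these: Ermn between naive punches (-0.018 to 0.17), and ipsilateral Mog (-0.087 to 0.12), Cnp (-0.17 to 0.022) and Mal (-0.098 to 0.074) at 24 h. For ipsilateral 72 h against 24 h they were Mag (-0.080 to 0.31), Mobp (-0.24 to 0.20) and Opalin (-0.24 to 0.11). On the contralateral side they were Cnp at 24 h (-0.036 to 0.066), and Mobp (-0.10 to 0.14) and Ermn (-0.13 to 0.29) at 72 h against 24 h.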

Other observations

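The ipsilateral 72 h library of PM1, whose labels contradict each other on sex, entered no comparison. It held 1589 CPM of Mbp, 471.2 of Mobp, 312.5 of Cnp, 205.0 of Cldn11, 179.8 of Mag, 134.6 of Mal, 58.6 of Mog, 45.4 of Ermn and 15.4 of Opalin. The contralateral library labelled as the same animal held 1728 CPM of Mbp, 436.5 of Mobp, 248.8 of Cnp, 100.9 of Cldn11, 123.5 of Mag, 143.9 of Mal, 40.5 of Mog, 33.3 of Ermn and 13.9 of Opalin.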
